A study of Homo sapiens with 2 samples.

Results

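The Krüppel-like factors described here are 10 transcription factor genes, KLF2, KLF4, KLF5, KLF6, KLF7, KLF9, KLF10, KLF11, KLF13 and KLF16, out of 26370 gene names in the expression files. Each was taken by its gene name, and the values of its transcripts were summed. The genes were picked from the family with earlier results for these libraries known, in which KLF2 and KLF6 had already been seen to be lower after treatment, so their levels and ratios below are a description and are not tested. The source was CHME3, a human line made to grow without limit and labelled as microglia, at passages 4 to 6. One culture had received 5 µg/ml of muscarinic receptor antagonists, drugs that keep acetylcholine from acting on its G protein-coupled receptors, and the other was untreated. The labels name neither the compound nor the length of exposure, and both groups are the same line with no other genetic change or agent listed. There was 1 library per condition, so no difference has a replicate check. In such bulk RNA, fewer cells expressing a gene and less RNA per cell cannot be told apart.

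Krüppel-like factors bind GC-rich and CACCC elements of DNA through a conserved set of zinc fingers at the end of the protein, and differ in the rest of it. KLF2, KLF4, KLF5, KLF6 and KLF7 are known mainly as activators that recruit acetyltransferases, while KLF9, KLF10, KLF11, KLF13 and KLF16 carry a segment that binds the corepressor SIN3A. In myeloid cells KLF2 and KLF4 are known for restraining or tuning inflammatory activation, and several genes of the family respond rapidly to growth factors, steroids or flow.

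The upstream sequences of the genes that were lower in the treated library, KLF2, KLF6 and KLF9, and of KLF16, the most abundant, are shown because they differ in base composition. They come from RefSeq promoter windows of GRCh38.p14, which covered 9 of the 10 genes, with KLF10 named only. Each is written 5′ to 3′ on the gene's own strand and ends before the transcript start, at most 250 bases long, with GC boxes in capitals, that is GGGCGG on either strand.
KLF2, chr19:16324576-16324825, plus strand: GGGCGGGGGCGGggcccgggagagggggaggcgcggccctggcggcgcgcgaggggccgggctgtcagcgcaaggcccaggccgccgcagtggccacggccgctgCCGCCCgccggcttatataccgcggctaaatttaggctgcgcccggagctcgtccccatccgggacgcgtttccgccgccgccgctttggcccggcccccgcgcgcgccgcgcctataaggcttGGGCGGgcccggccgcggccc
KLF6, chr10:3785282-3785459, minus strand: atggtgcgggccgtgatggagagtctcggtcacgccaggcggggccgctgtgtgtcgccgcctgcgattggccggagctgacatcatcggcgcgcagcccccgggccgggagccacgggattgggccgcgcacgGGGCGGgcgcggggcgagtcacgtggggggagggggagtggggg
KLF9, chr9:70414658-70414907, minus strand: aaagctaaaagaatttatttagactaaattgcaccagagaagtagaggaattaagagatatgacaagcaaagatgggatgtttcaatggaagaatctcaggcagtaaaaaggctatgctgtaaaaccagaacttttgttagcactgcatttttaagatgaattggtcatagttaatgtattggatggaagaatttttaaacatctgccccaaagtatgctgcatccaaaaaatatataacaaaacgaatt
KLF16, chr19:1863580-1863829, minus strand: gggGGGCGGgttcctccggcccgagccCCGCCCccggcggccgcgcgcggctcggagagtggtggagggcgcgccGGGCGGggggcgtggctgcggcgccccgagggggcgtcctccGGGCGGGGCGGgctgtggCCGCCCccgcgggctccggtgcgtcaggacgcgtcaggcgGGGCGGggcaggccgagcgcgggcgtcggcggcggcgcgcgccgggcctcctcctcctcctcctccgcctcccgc
The 250 bases before the RefSeq start were 80.0% G and C in KLF2, 72.4% in KLF6, 32.4% in KLF9 and 86.4% in KLF16, against a median of 58.0% over 35116 windows of all genes. GC boxes numbered 4 in KLF2, 2 in KLF6, of which the second lies in bases not shown because the files' own transcript starts earlier, 0 in KLF9 and 7 in KLF16. At least 1 GC box was present in 7 of the 9 KLF windows and in 42.6% of all windows.

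A match to the binding site of MEF2, the factor through which the kinase ERK5 is known to induce KLF2 in endothelium, was found in 1 of the 9 windows, that of KLF2, and in 2.80% of all windows. It lies at positions -120 to -111 from the start and is given in capitals with its flanks.
KLF2, chr19:16324696-16324725, plus strand: tataccgcggCTAAATTTAGgctgcgcccg
The CArG box, the site of serum response factor, and the AP-1 site TGANTCA were in 0 of the 9 windows, against 1.16% and 6.57% of all windows. The E-box CACGTG, bound by clock and MYC factors, was in the windows of KLF4, KLF6 and KLF11, against 6.34% of all windows. The CACCC element was in 3 of the 9 windows, against 54.7% of all windows, and CCAAT in 4, against 32%. TGACG, the core of the cyclic AMP response element, was in 4 of the 9 windows, against 21.2% of all windows, and the TATA box, TATAAA, in 0, against 10.7%. Both strands were read, GC boxes were counted where they overlap, and a match describes letters, not binding. As in KLF6, some windows run into the gene's transcript with the most FPKM over both libraries. That transcript starts before the RefSeq start by 274 bases in KLF11, 213 in KLF5 and 68 in KLF7. The whole KLF11 window and most of the KLF5 window, with their GC boxes, thus lie inside a listed transcript. In KLF7 a less abundant transcript of 7826 bases starts further upstream, at 207166186, so most of that window, with its CACCC matches, lies within its span.

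The libraries were similar in depth, an estimated 7301216 fragments in the treated and 6805866 in the untreated library, and 11668 genes averaged 1 FPKM or more over both. FPKM counts fragments relative to transcript length and library depth, so levels can be compared between genes. Of 12 microglia and macrophage markers 6 were listed at 0 in both libraries, AIF1, TMEM119, CX3CR1, ITGAM, PTPRC and TYROBP, and 10 were under 1 FPKM in both, so defining markers of the labelled cell type were absent. CD68, a lysosomal protein also found outside macrophages, was at 12.6 FPKM in the treated and 15.7 FPKM in the untreated library. The 8 fibroblast and mesenchyme markers summed to 6221 FPKM in the treated and 5725 FPKM in the untreated library, and most of that came from 2 genes, FN1, fibronectin, at 3021 and VIM, vimentin, at 2025 FPKM in the treated library, against 2725 and 1967 FPKM in the untreated library. Of the 8, 6 averaged 1 FPKM or more, COL3A1 was listed at 0 in both libraries and COL1A2 was at 0.157 FPKM in the treated and 0.196 FPKM in the untreated library, while COL1A1 was at 545 FPKM in the treated and 499 FPKM in the untreated library. RNA18S5, the 18S ribosomal RNA, was at 759 FPKM in the treated and 363 FPKM in the untreated library. These differences go with every ratio below, and their part in the KLF results was not tested.

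KLF16 and KLF6 made up most of the KLF signal in both libraries. The 10 genes summed to 111 FPKM in the treated and 121 FPKM in the untreated library, and KLF16 and KLF6 together gave 72.1% of that sum in the treated and 71.8% in the untreated library. In the order of levels, KLF16 came first, then KLF6, KLF2, KLF10, KLF7, KLF13, KLF5, KLF11, KLF9 and KLF4, and this order was the same in both libraries. In brackets after a level stands its 95% exact Poisson interval, which covers counting error only. In the treated library the intervals of neighbours from KLF2 down to KLF11 overlapped pairwise, as did those of KLF9 and KLF4. The order of such neighbours is thus not resolved, though KLF2 lay clear of KLF13, KLF5 and KLF11. Neighbours overlapped in the untreated library too, for KLF10 and KLF7 and pairwise from KLF13 down to KLF9. In the untreated library KLF2, at 11.4 FPKM (9.35 to 13.6), lay clear of KLF10, at 5.74 FPKM (4.74 to 6.91), whereas in the treated library KLF2, at 6.71 FPKM (5.27 to 8.48), overlapped KLF10, at 5.77 FPKM (4.80 to 6.90). KLF16 was higher than 86.3% of the 11668 genes in the treated and 86.6% in the untreated library, and KLF6 was higher than 78.5% and 81.7%.

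**Figure D1:**
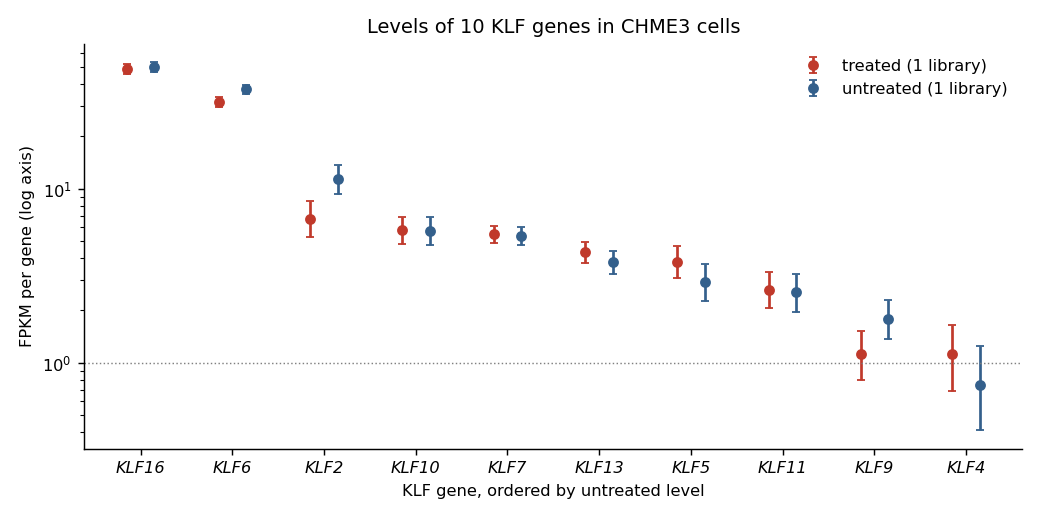
FPKM per gene on a log axis for the 10 KLF genes, with the treated library in red on the left of each pair, the untreated library in blue on the right, and bars for 95% exact Poisson intervals. KLF16 and KLF6 stand above 29 FPKM in both libraries, KLF2 is at 6.71 FPKM in the treated and 11.4 FPKM in the untreated library, and KLF9 and KLF4 lie near the dotted line at 1 FPKM.

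Among the activators, KLF2 and KLF6 were lower in the treated library, KLF7 was nearly equal, and KLF4 and KLF5 had higher values within counting error. KLF2, known for keeping endothelium and myeloid cells quiescent, lies on the plus strand of chromosome 19, 16324840 to 16327528 on hg38, with 1 transcript of 1649 bases in 3 exons. It was at 6.71 FPKM in the treated library and 11.4 FPKM in the untreated library, from an estimated 72 and 113 fragments. The FPKM ratio of treated over untreated was 0.591, with a 95% exact binomial counting interval of 0.435 to 0.804. On the scale of log2(FPKM + 1), which understates the ratio of low genes, the difference was -0.68, and 89 of the 11668 genes had a value as low or lower. The lower and upper bounds in the authors' deposited table, 5.10 to 8.32 FPKM for the treated and 9.21 to 13.5 FPKM for the untreated library, did not overlap.

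KLF6, which is induced by injury and growth signals, lies on the minus strand of chromosome 10, 3775996 to 3785281. It was at 31.4 FPKM in the treated library and 37.2 FPKM in the untreated library, from an estimated 1026 and 1131 fragments. The ratio was 0.845 (0.776 to 0.921), a smaller difference than that of KLF2 with a much narrower interval, and the intervals of the 2 genes' ratios overlapped only between 0.776 and 0.804. The bounds of its main transcript in the authors' deposited table were 27.5 to 32.1 FPKM in the treated and 32.6 to 37.9 FPKM in the untreated library and did not overlap.

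KLF4, one of the pluripotency factors, lies on chromosome 9, 107484852 to 107489766, minus strand. It was at 1.12 FPKM in the treated and 0.747 FPKM in the untreated library, from 22 and 14 fragments, and its ratio of 1.497 had an interval of 0.716 to 3.09. Its mean of 0.933 FPKM was under the floor of 1 FPKM, so the counts below leave it out. KLF5, which promotes proliferation in epithelium and smooth muscle, lies on chromosome 13, 73054976 to 73077542, plus strand. It was at 3.81 FPKM in the treated and 2.92 FPKM in the untreated library, from 94 and 67 fragments, a ratio of 1.30 (0.941 to 1.81). KLF7, known for axon growth in neurons, lies on chromosome 2, 207074138 to 207167246, minus strand. It was at 5.48 FPKM in the treated and 5.36 FPKM in the untreated library, a ratio of 1.02 (0.872 to 1.20). The intervals of KLF4, KLF5 and KLF7 include 1, and at this depth they leave room for differences of 1.2-fold or more in at least one direction.

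Among the SIN3A-binding repressors, KLF9 was lower in the treated library and the other four had counting intervals that include 1. KLF9, which glucocorticoids and thyroid hormone induce, lies on chromosome 9, 70384597 to 70414657, minus strand, with 1 transcript of 5208 bases in 2 exons. It was at 1.13 FPKM in the treated and 1.78 FPKM in the untreated library, from 41 and 61 fragments. The ratio was 0.633 (0.411 to 0.946), close to that of KLF2, but the log2 difference with the pseudocount of 1 was only -0.39 because the gene is low. The authors' deposited bounds, 0.774 to 1.48 FPKM in the treated and 1.32 to 2.25 FPKM in the untreated library, overlapped.

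KLF10 and KLF11, which transforming growth factor beta induces, were nearly equal. KLF10 (chromosome 8, 102648777 to 102655902, minus strand) was at 5.77 FPKM in the treated and 5.74 FPKM in the untreated library, a ratio of 1.005 (0.773 to 1.31). KLF11 (chromosome 2, 10043555 to 10054836, plus strand) was at 2.64 FPKM in the treated and 2.54 FPKM in the untreated library, a ratio of 1.04 (0.732 to 1.47). KLF13, an activator of the chemokine gene CCL5 in T cells (chromosome 15, 31326855 to 31435665, plus strand), was at 4.31 FPKM in the treated and 3.78 FPKM in the untreated library, a ratio of 1.14 (0.926 to 1.40). KLF16, described in mouse as a regulator of dopamine receptor genes (chromosome 19, 1852399 to 1863565, minus strand), was at 48.6 FPKM in the treated and 49.8 FPKM in the untreated library, from 959 and 915 fragments. Its ratio of 0.976 (0.891 to 1.07) gives the tightest interval of this group, with no room for a difference of 1.5-fold.

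**Figure D2:**
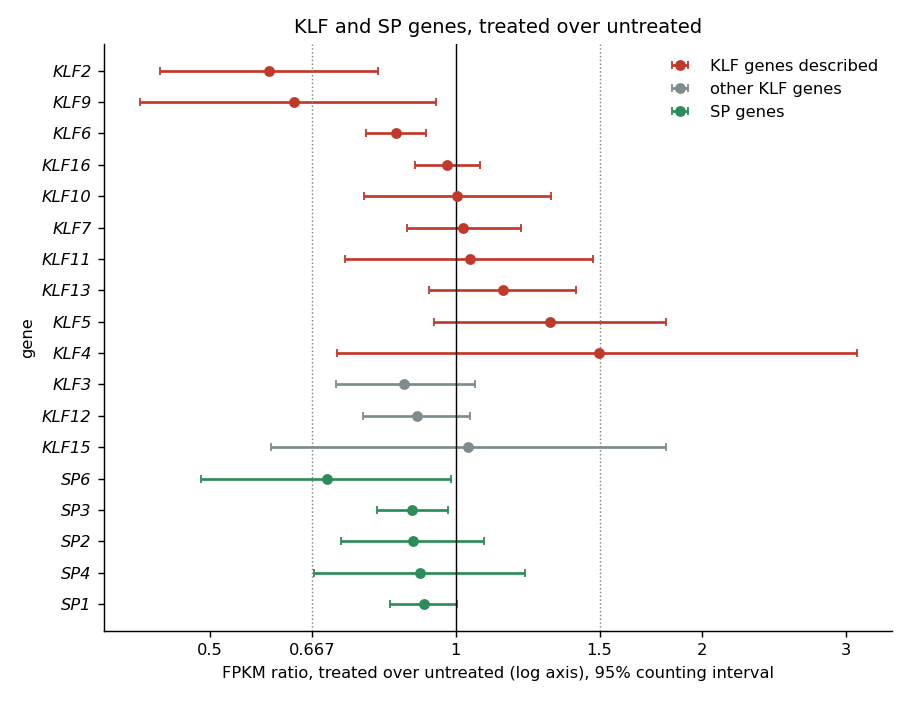
FPKM ratio of treated over untreated on a log axis, with 95% counting intervals, for the 10 KLF genes (red), the other KLF genes (grey) and the SP genes (green) averaging 1 FPKM or more, and dotted lines at 1.5-fold either way on plain FPKM, with no pseudocount. KLF2 and KLF9 have ratios under the lower line. The intervals of KLF2, KLF9 and KLF6 lie below 1, those of the other 7 KLF genes described include 1, and all 5 SP genes have ratios under 1.

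Of the 9 KLF genes that averaged 1 FPKM or more, 4 were lower and 5 higher in the treated library, with a median log2 difference of 0.01, against 0.00 for all 11668 genes, whose middle 50% ran from -0.10 to 0.11. On the scale of log2(FPKM + 1), KLF2 was at least 1.5-fold lower, where 1.03% of all genes were, and 0 were at least 1.5-fold higher, where 1.2% of all genes were. KLF9, with an FPKM ratio of 0.633, is past 1.5-fold on plain FPKM but not with the pseudocount of 1. None reached 2-fold, where 0.309% of all genes were lower and 0.351% higher. The counting interval lay below 1 in 3 of the 9, where it did so in 6.17% of all genes, and above 1 in 0, where it did so in 6.7%. The authors' bounds of the most abundant transcript did not overlap in 2 genes on the lower side, KLF2 and KLF6, where 3.7% of all genes did so. On the higher side they did not overlap in 1 gene, KLF11, where 3.93% of all genes did so, a transcript assignment described below. Over the 8296 genes averaging 5 FPKM or more, KLF2, KLF6, KLF7, KLF10 and KLF16 among them, 0.494% were at least 1.5-fold lower, as KLF2 was, and 0.506% higher, as 0 KLF genes were. In the same genes 0.289% were at least 2-fold lower and 0.253% higher, as 0 KLF genes were, and the counting interval lay below 1 in 7.36%, as in KLF2 and KLF6, and above 1 in 7.2%, as in 0 KLF genes. Since the genes were chosen with these differences known, the shares are given without a reading.

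**Figure D3:**
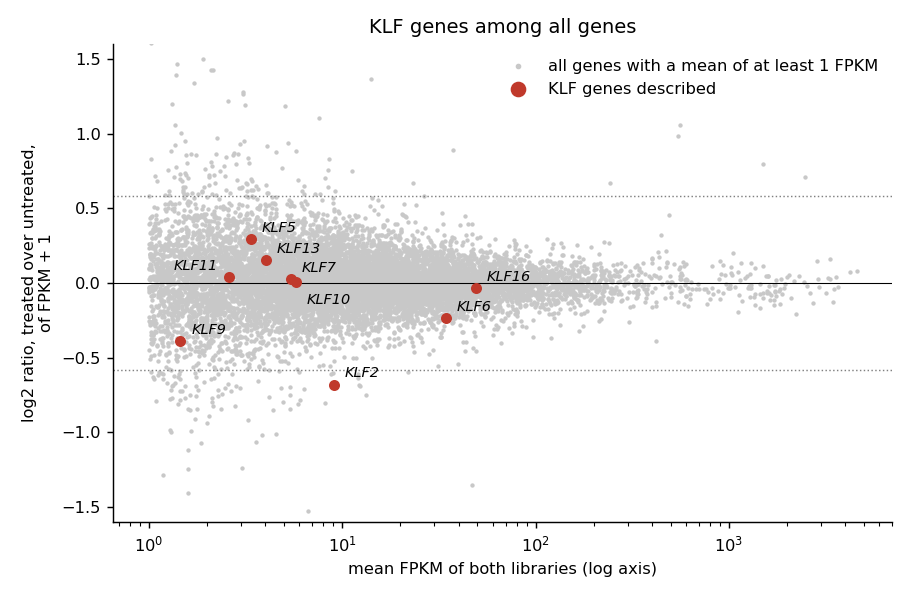
Log2 ratio of treated over untreated FPKM + 1 against mean FPKM on a log axis, for genes averaging 1 FPKM or more (grey, 49 lie outside the plotted range of 1.6 either way) and the 9 KLF genes among them (red). KLF2 lies below the dotted line of 1.5-fold at a mean of 9.03 FPKM, KLF6 and KLF16 lie at higher means near the narrow part of the cloud, and the others lie within it.

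The 10 genes have 26 transcript records, 4 genes with 1 record and 6 with several. In most of the genes with several, a single record held nearly all FPKM. The main KLF6 record, of 4662 bases, held 94.9% of the gene in the treated and 94.7% in the untreated library, and the shorter 4536-base record 2.91% and 4.20%. The 4508-base record of KLF6 was at 0.287 FPKM in the treated library and near 0 in the untreated library, with bounds in the authors' deposited table that overlap. KLF7 held 91.0% in its 8432-base record in the treated and 92.0% in the untreated library, and a 7826-base record was at 0.438 FPKM in the treated and 0.427 FPKM in the untreated library. KLF5 had 3.81 FPKM in its 3566-base record in the treated and 2.84 FPKM in the untreated library, where a 2952-base record held a further 2.81% of the gene.

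KLF11 was the exception. In the treated library 2.64 FPKM, nearly all of the gene, was listed under the 4030-base record that starts at 10043555, and in the untreated library 2.54 FPKM was listed under the 3885-base record that starts at 10043829. Both records have 4 exons and end at 10054836, and the sum per gene was alike. The record with the most FPKM differed between the libraries in 12.2% of the 6677 genes with several records, and whether fragments or only their assignment moved was not tested. KLF13 also has a copy on an alternate scaffold of chromosome 15, listed at 0 in both libraries. The records that overlap a KLF gene were MIR2355 and MIR7845, microRNA precursors within KLF7, both listed at 0 in both libraries.

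**Figure D4:**
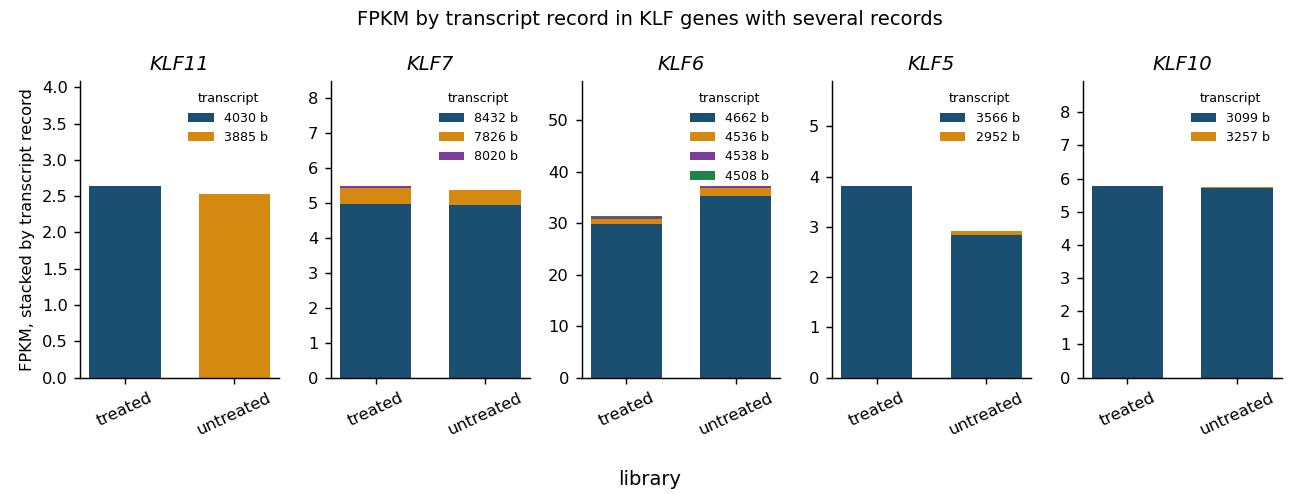
FPKM stacked by transcript record for the 5 KLF genes with several records above 0.01 FPKM in either library, the treated library on the left of each panel and the untreated on the right, with record length in bases in the legend. KLF11 is listed under a 4030-base record in the treated and a 3885-base record in the untreated library at similar totals, while the other genes keep 1 main record.

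Among the other KLF genes, 2 of the 3 that averaged 1 FPKM or more were lower in the treated library, and all 3 counting intervals include 1. KLF3, a repressor that recruits the corepressor CTBP, was at 5.14 FPKM in the treated and 5.94 FPKM in the untreated library, a ratio of 0.865 (0.714 to 1.06). KLF12, a related repressor, was at 4.39 FPKM in the treated and 4.89 FPKM in the untreated library, a ratio of 0.897 (0.770 to 1.04), and KLF15, a glucocorticoid-induced factor, was at 1.76 FPKM in the treated and 1.70 FPKM in the untreated library, a ratio of 1.04 (0.595 to 1.81). KLF1, the erythroid factor, and KLF8 were listed at 0 in both libraries, and the limit of 3 fragments that a count of 0 allows equals 0.287 FPKM for KLF1 and 0.0785 FPKM for KLF8 in the treated library, against 0.309 FPKM and 0.0842 FPKM in the untreated library. KLF14 and KLF17 rested on at most 2 fragments a library, and KLF18 was not analysed here.

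All 5 SP genes that averaged 1 FPKM or more, zinc finger factors that bind the same GC boxes, were lower in the treated library, with a median log2 difference of -0.16. Of all genes 49.3% were lower. SP3 was at 18.1 FPKM in the treated and 20.5 FPKM in the untreated library, a ratio of 0.885 (0.802 to 0.978), and SP6 was at 2.23 FPKM in the treated and 3.20 FPKM in the untreated library, a ratio of 0.696 (0.488 to 0.987). SP1, the founding factor of the group, was at 16.2 FPKM in the treated and 17.8 FPKM in the untreated library, a ratio of 0.914 (0.831 to 1.004), which includes 1. SP2 was at 9.06 FPKM in the treated and 10.2 FPKM in the untreated library, and SP4 at 2.24 FPKM in the treated and 2.48 FPKM in the untreated library, both with intervals that include 1. Whether the SP genes differ from the KLF genes was not tested.

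Of the cofactors that KLF proteins bind, all 12 genes averaged 1 FPKM or more, 4 lower and 8 higher, with a median log2 difference of 0.04. Of these 0 were past 1.5-fold on the log2(FPKM + 1) scale, where 1.03% of all genes were lower and 1.2% higher. The counting interval lay above 1 in 2 and below 1 in 0, against 6.7% and 6.17% of all genes. SIN3A, the corepressor itself, was at 24.6 FPKM in the treated and 22.3 FPKM in the untreated library, a ratio of 1.10 (1.01 to 1.20). WDR5, a histone methyltransferase subunit, was at 29.0 FPKM in the treated and 25.5 FPKM in the untreated library, a ratio of 1.14 (1.01 to 1.28), KAT2B, an acetyltransferase, at 2.03 FPKM in the treated and 2.72 FPKM in the untreated library, and SAP30, a subunit of the SIN3 complex, at 6.94 FPKM in the treated and 7.98 FPKM in the untreated library. Of the list for the arm that leads from the kinase ERK5 to MEF2 and KLF2, 11 of 12 genes passed the floor, 5 lower and 6 higher, median 0.03, with 0 past 1.5-fold. The counting interval of these genes lay above 1 in 1 and below 1 in 1, against the same 6.7% and 6.17% of all genes. KRIT1, CCM2, PDCD10 and HEG1 are on the list beside the kinases and MEF2 factors, so its counts and median pool unlike roles. MEF2C was at 0.209 FPKM in the treated and 0.183 FPKM in the untreated library. MAP2K5, the kinase that activates ERK5, was at 12.3 FPKM in the treated and 14.7 FPKM in the untreated library, a ratio of 0.835 (0.685 to 1.02). MAPK7, which encodes ERK5, was at 9.31 FPKM in the treated and 10.4 FPKM in the untreated library, a ratio of 0.898 (0.729 to 1.11). MEF2D, a MEF2 factor, was at 18.7 FPKM in the treated and 20.997 FPKM in the untreated library, a ratio of 0.889 (0.805 to 0.982). MEF2A, another MEF2 factor, was at 5.21 FPKM in the treated and 4.50 FPKM in the untreated library, a ratio of 1.16 (0.935 to 1.43). MAP3K3 and CCM2, also of this list, each had a ratio of 1.06 with an interval that includes 1. PDCD10 had a ratio of 0.887 (0.714 to 1.11) and HEG1 one of 1.02 (0.935 to 1.12). KRIT1, whose protein restrains this arm in endothelium, was at 6.58 FPKM in the treated and 5.26 FPKM in the untreated library, a ratio of 1.25 (1.01 to 1.548), and MEF2B was at 1.95 FPKM in the treated and 1.49 FPKM in the untreated library, from 18 and 13 fragments. SIN3A, MAPK7, MEF2A, MEF2C, MEF2D, MAP3K3, CCM2, PDCD10 and HEG1 were named after their values were seen. The 8 ubiquitin ligases reported to act on KLF proteins, 2 lower and 6 higher, had a median of 0.04 with 0 past 1.5-fold. FBXW7 was at 3.93 FPKM in the treated and 4.46 FPKM in the untreated library, WWP1 at 6.94 FPKM in the treated and 7.55 FPKM in the untreated library, and SIAH1 at 8.66 FPKM in the treated and 7.92 FPKM in the untreated library, and all 3 intervals include 1.

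Of 15 genes listed as induced by KLF2 or KLF4 in endothelium or leukocytes, 9 were under 1 FPKM in both libraries. Low levels were common, since only 11668 of all 26370 genes averaged 1 FPKM or more. PTGDS, TEK and ITGB7 were among those listed at 0 in both. Whether KLF2 or KLF4 induces the listed genes in these cells was not tested. The 6 over the floor had a median log2 difference of 0.02, 3 lower and 3 higher. CDKN1C, a cell cycle inhibitor, was at 15.4 FPKM in the treated and 18.8 FPKM in the untreated library, a ratio of 0.818 (0.667 to 1.01). TXNIP, a thioredoxin inhibitor, was at 32.6 FPKM in the treated and 28.6 FPKM in the untreated library, a ratio of 1.14 (1.02 to 1.28), and S1PR1, a sphingosine phosphate receptor, at 2.48 FPKM in the treated and 2.10 FPKM in the untreated library, with an interval that includes 1. Of 12 genes listed as repressed by KLF2 or KLF4, 6 passed the floor, 1 lower and 5 higher, with a median of 0.13. Of all genes 49.3% were lower. Of the 6, 0 were past 1.5-fold, where 1.03% of all genes were lower and 1.2% higher. The counting interval lay above 1 in 3 of the 6 and below 1 in 0, against 6.7% and 6.17% of all genes. The adhesion genes VCAM1, at 0.0996 FPKM in the treated and 0.0535 FPKM in the untreated library, and SELE, listed at 0 in both, were among those under the floor. Whether the genes of this list go with the level of KLF2 was not tested. CXCL8, a neutrophil chemokine, was at 18.1 FPKM in the treated and 14.2 FPKM in the untreated library, a ratio of 1.27 (1.02 to 1.58). F3, tissue factor, was at 2.17 FPKM in the treated and 1.73 FPKM in the untreated library, while IL6, a cytokine, was at 4.78 FPKM in the treated and 6.05 FPKM in the untreated library, and both intervals include 1. THBS1, thrombospondin, named after its values were seen, was at 171 FPKM in the treated and 162 FPKM in the untreated library, a ratio of 1.06 (1.03 to 1.09).

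Genes induced by the same signals as KLF9, KLF10 and KLF11 had list medians within 0.08 of 0.00, the median of all genes, on the log2 scale. Of 10 glucocorticoid-induced genes 8 passed the floor, 5 lower and 3 higher, with a median of -0.04. PER1, a clock gene, was at 14.95 FPKM in the treated and 17.1 FPKM in the untreated library, a ratio of 0.873 (0.771 to 0.989), ERRFI1, an inhibitor of the epidermal growth factor receptor, at 8.72 FPKM in the treated and 10.6 FPKM in the untreated library, and TSC22D3, which encodes the leucine zipper protein GILZ, at 8.12 FPKM in the treated and 8.77 FPKM in the untreated library. Of 12 genes induced by transforming growth factor beta, all over the floor, 4 were lower and 8 higher, with a median of 0.08. ID1, an inhibitor of differentiation factors, was at 19.7 FPKM in the treated and 26.1 FPKM in the untreated library, a ratio of 0.753 (0.587 to 0.962). LTBP2, a matrix protein, was at 17.2 FPKM in the treated and 14.1 FPKM in the untreated library, a ratio of 1.22 (1.11 to 1.34), and SMAD7, an inhibitor of the pathway, at 3.68 FPKM in the treated and 2.998 FPKM in the untreated library, with an interval that includes 1. Of 10 genes reported to be activated by KLF5 or KLF6, all over the floor, 6 were lower and 4 higher, with a median of -0.04. PDGFA, a growth factor, was at 4.71 FPKM in the treated and 3.91 FPKM in the untreated library, PLAU, urokinase, at 16.0 FPKM in the treated and 14.0 FPKM in the untreated library, and ATF3, a stress-induced factor, at 4.34 FPKM in the treated and 3.66 FPKM in the untreated library, and all 3 intervals include 1.

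The immediate early gene outside the family with the largest difference was FOS, a subunit of AP-1, at 9.62 FPKM in the treated and 16.8 FPKM in the untreated library, a ratio of 0.572 (0.460 to 0.711). Of 17 immediate early genes outside the family that passed the floor, 11 were lower and 6 higher, with a median of -0.08, and FOS was the only one past 1.5-fold, on the lower side, where 1.03% of all genes were. The counting interval lay below 1 in 4 of the 17 and above 1 in 1, against 6.17% and 6.7% of all genes. BTG2, an antiproliferative factor, was at 5.43 FPKM in the treated and 6.44 FPKM in the untreated library, with an interval that includes 1.

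**Figure D5:**
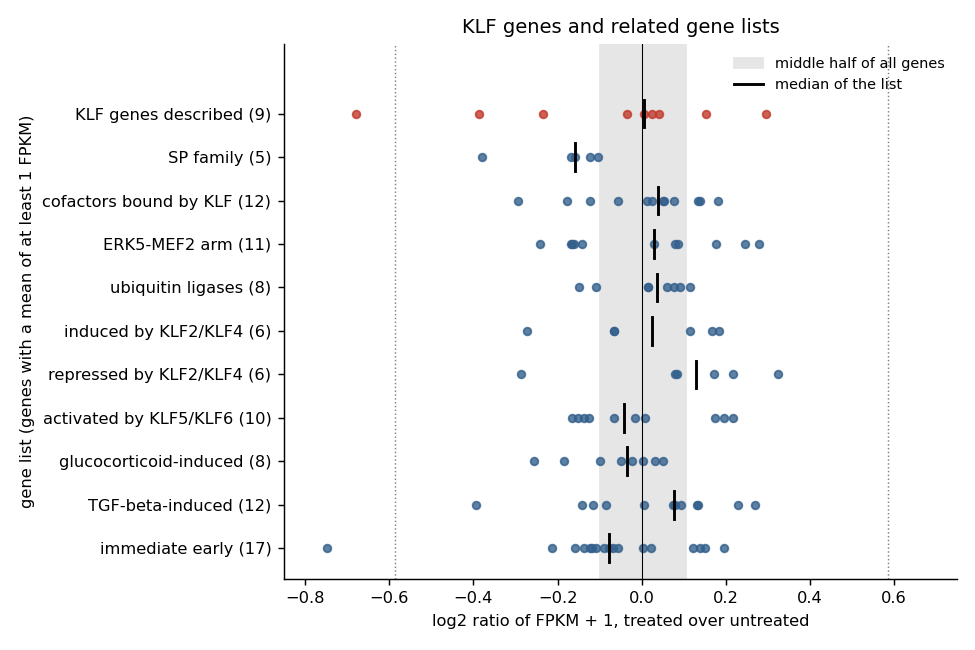
Log2 ratio of treated over untreated FPKM + 1 for the 9 KLF genes (red) and the genes of 10 related lists (blue) averaging 1 FPKM or more, with the number of genes in brackets, black bars for medians, a grey band for the middle 50% of all genes and dotted lines at 1.5-fold. KLF2 and FOS are the points past 1.5-fold, and the list medians lie between -0.16 and 0.13.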

How the data were processed

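RNA of 2 CHME3 cultures, 1 treated and 1 untreated, was analysed, grouped by the treatment given in the labels. TopHat, Cuffdiff and the build hg38 are named, per the submitters' processing notes, and per the file headers Cufflinks wrote every line. The values the authors deposited are FPKM per RefSeq transcript with lower and upper bounds, and the files also hold a score relative to the main isoform that the authors' software gives, left unused. The 56891 transcripts listed are the same in each file. Strand is not given in the sources used here.

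FPKM was summed per gene in Python 3.11.15. The log2 ratio used a pseudocount of 1 and a mean of at least 1 FPKM, and a gene was called by size alone at 1.5-fold, with 2-fold given beside it. Fragments were estimated from the authors' FPKM bounds: where a gene had a single transcript and 3 or more fragments, 21.3% of 5992 treated and 21.1% of 5931 untreated values were whole within 0.01, and from these a depth was fitted that gave fragments from FPKM and length. Estimated over recovered fragments had a median of 1.01 in the treated and 1.02 in the untreated library. Intervals, 95% exact conditional binomial for ratios and exact Poisson for levels, use rounded fragments (scipy 1.17.1). They cover counting error only, compare these libraries and not the conditions, and leave out the division of reads between isoforms and PCR duplicates. The rule and intervals were also run on simulated counts with Poisson error only, which cannot show how they behave under variation between cultures.

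The KLF genes, gene lists and settings were chosen with earlier results of these data known. Named were all KLF genes described, other KLF and SP genes over the floor, the 3 genes of each other list with the largest absolute log2 ratio, overlapping genes, and markers at 0 or highest, apart from a few genes not reported here. With 2 libraries no measure of likeness across samples exists. The files' FPKM stand in a text attribute, and no test for replicated data was used.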

Additional observations from a re-analysis of the deposited data

How the results depend on the processing

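Of the alternatives, 4 change more than sizes or which genes count: the most abundant transcript, depth-scaled fragments, centring and rescaling. Under them 36 of 36 log2 ratios of 9 KLF genes kept their sign, but most of this was fixed in advance. Centring moved log2 ratios by 0.0026 and rescaling multiplied treated values by 1.00305, too little to change any of these signs. In KLF2, KLF9 and KLF16 the most abundant transcript is the whole gene. Of the 36 values 1, that of KLF11, moved by more than the counting interval reaches to either side. Pseudocounts of 0.1 and 5 change only sizes, filters (none, or a 5 FPKM mean) only which genes count, and KLF4, under the floor, was not varied. KLF2 ranged from -0.75 to -0.48 and the median over the KLF genes from -0.03 to 0.02. The number of KLF genes at least 1.5-fold lower was 2 with a pseudocount of 0.1, which adds KLF9, and 0 with a pseudocount of 5, by which KLF2 falls short. With the most abundant transcript, 1 KLF gene was at least 1.5-fold higher and 1 had a counting interval above 1, both KLF11, at a log2 ratio of 1.86. Over all genes, 120 were at least 1.5-fold lower and 140 higher, against 258 and 298 with a pseudocount of 0.1, 27 and 35 with 5, 202 and 229 with no filter, 41 and 42 at a 5 FPKM mean, and 324 and 374 with the most abundant transcript. No paired analysis was possible because each group has 1 library, which also leaves no replicate to leave out. Depth limits KLF4, with 22 treated and 14 untreated fragments, and KLF9.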

Other observations

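Markers of other brain and vascular cells were mostly at or near 0. Of 5 astrocyte markers AQP4 and S100B were listed at 0 in both libraries, and SLC1A3, a glutamate transporter that fibroblast-like cells can also express, was at 5.25 FPKM in the treated and 3.97 FPKM in the untreated library. The neuronal tubulin TUBB3, common in cultured cell lines, was at 29.9 FPKM in the treated and 29.3 FPKM in the untreated library, while the other neuronal markers MAP2, SYP and RBFOX3 were under 1 FPKM in both. The 4 oligodendrocyte and the 4 endothelium markers stayed under 1 FPKM, and PECAM1 was listed at 0 in both.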
